A study of Homo sapiens with 27 samples.

Results

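The expression of 9 genes of the NF-kappaB response was examined in T47D cells with truncated mutants of GATA3. T47D is an established cell line from a luminal breast cancer. The genes were the chemokine genes CCL2 and CCL28, the feedback genes NFKBIA and TNFAIP3, the subunit genes NFKB2 and RELB, and the response genes TNFAIP2, BIRC3 and ICAM1. They were taken by symbol from the gene count table, and all 9 were found among its 26485 genes. RNA was sequenced from 4 cell pools with 3 libraries each. The pools had been infected with a pHAGE lentivirus and selected with puromycin. They carried the empty vector (control) or 1 of 3 mutants fused to a Ty-1 tag, namely Splice del, C321fs and A333fs. In Splice del a deletion at a splice acceptor shifts the reading frame, and C321fs and A333fs are frameshifts within the second zinc finger. All 4 lines kept the GATA3 genes of T47D cells, so each mutant acted beside the cells' own protein. Each mutant was studied in 1 pool, and an effect of the mutant cannot be told apart from another difference of its pool. The sources give different growth media for these cells, so the medium was not settled. The study calls the libraries of a line biological replicates without saying whether they came from separate cultures, and the p-values measure the spread among these libraries. Every comparison with control used the same 3 control libraries.

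NF-kappaB is a family of dimeric transcription factors that inhibitor proteins of the IkappaB group hold in the cytoplasm. Signals from tumor necrosis factor, interleukin and Toll-like receptors lead to the destruction of the inhibitor, and the freed dimers enter the nucleus. Their targets include chemokines, adhesion molecules and survival genes, and also the inhibitors that end the response. A second branch of the pathway processes the product of NFKB2, which then pairs with RELB. In breast epithelium the pathway is known for its parts in inflammation and in the development of the gland. GATA3 is a zinc finger transcription factor of luminal breast cells.

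In the hg38 build, CCL2 was listed at chr17:34255277-34257201 on the plus strand and CCL28 at chr5:43376646-43412391 on the minus strand. NFKBIA was listed at chr14:35401510-35404754 on the minus strand and TNFAIP3 at chr6:137867188-137883314 on the plus strand. NFKB2 lay at chr10:102394110-102402529 and RELB at chr19:45001449-45038198, both on the plus strand. BIRC3 at chr11:102317450-102339403, TNFAIP2 at chr14:103126327-103137439 and ICAM1 at chr19:10270841-10286615 were also on the plus strand. Counts covered the exons of each gene, and the exons of these 9 genes overlapped those of 0 other listed genes.

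RefSeq start sites (GRCh38.p14) were at hand for 7 of the 9 genes, with 10 windows in all, and not for CCL2 and RELB. The 250 bases before each start were searched on both strands for the letters of the NF-kappaB consensus, for the looser GGGNNNNNCC, which includes every match of the consensus, and for the GATA motifs AGATAA and TGATAA. The consensus was matched in 5 of the 10 windows, which belonged to BIRC3, NFKB2, NFKBIA and TNFAIP3, and in 9.96% of the 35116 windows of all genes. GGGNNNNNCC was matched in 9 of the 10 windows and in 54.4% of all windows. AGATAA or TGATAA was matched in 0 of the 10 windows and in 14.6% of all windows. The paper gives the GATA3 motif as WGATAR (W is A or T, R is A or G) and reports a partial motif, AGAT, for the mutants. The form ending in G and the partial motif were not searched, so these windows are not shown to lack GATA motifs. The BIRC3 window below holds AGATAG, a match of WGATAR. A match is a description of letters and no evidence of a bound site, and starts of other transcripts were not searched. BIRC3, the member called higher in all 3 mutant lines, NFKBIA, which was called in none of them, and CCL28, which was called in opposite directions, are shown with consensus matches in capitals. The BIRC3 window was chr11:102317234-102317483 on the plus strand, with matches that began 199 and 135 bases before the start. The NFKBIA window was chr14:35404750-35404999 on the minus strand, with a match 81 bases before the start. Of the 2 CCL28 windows, the one at chr5:43412392-43412641 on the minus strand is shown. Neither held a consensus match, and the one shown held 1 match of GGGNNNNNCC.
BIRC3: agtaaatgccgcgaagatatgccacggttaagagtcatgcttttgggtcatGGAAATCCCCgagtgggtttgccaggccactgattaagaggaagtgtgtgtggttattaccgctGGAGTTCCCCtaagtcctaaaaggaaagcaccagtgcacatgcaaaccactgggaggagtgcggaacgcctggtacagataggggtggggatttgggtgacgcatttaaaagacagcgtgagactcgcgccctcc
NFKBIA: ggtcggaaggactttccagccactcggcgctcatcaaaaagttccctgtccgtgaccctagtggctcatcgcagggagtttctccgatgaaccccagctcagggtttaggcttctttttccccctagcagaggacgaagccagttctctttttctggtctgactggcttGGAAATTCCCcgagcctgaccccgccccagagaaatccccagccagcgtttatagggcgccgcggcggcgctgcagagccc
CCL28: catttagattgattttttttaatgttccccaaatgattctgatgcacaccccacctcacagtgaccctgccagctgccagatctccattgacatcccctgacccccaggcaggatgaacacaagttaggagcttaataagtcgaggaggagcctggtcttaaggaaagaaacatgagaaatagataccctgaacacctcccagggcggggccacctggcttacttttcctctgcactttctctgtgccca

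The libraries held 27872208 to 36788024 fragments counted on genes, and levels are given as CPM, which divides counts by library size after normalization by trimmed mean of M-values (TMM). The TMM factors were 0.884 to 0.943 in the control libraries and 1.01 to 1.05 in the mutant libraries. Changes against control followed the GC content of the exons. The 14789 tested genes were split into 5 bins by exon GC content. In the bin of lowest GC content (27.3% to 41.8%) the median log2 fold change was 0.31 in A333fs, 0.29 in Splice del and 0.30 in C321fs. In the bin of highest GC content (59.1% to 87.9%) it was -0.46, -0.26 and -0.25. The part of this trend in the results was measured by a second fit in which a smooth curve over exon GC content and length was subtracted for every library, here named removal of the GC trend. Its values stand beside a result where they end or add a call or turn its direction. Calls needed a fold change over 1.5 and an adjusted p below 0.01, with p-values of edgeR's quasi-likelihood test adjusted by the Benjamini-Hochberg method. In bulk RNA, fewer cells that express a gene and less RNA per cell cannot be told apart.

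All 10 luminal markers were measured, and the luminal identity of the lines was visible in GATA3, KRT8 and ESR1. GATA3 had a mean of 1280 CPM in control, 1020 in A333fs, 1140 in C321fs and 1000 in Splice del. These counts may include fragments of the introduced mutant, which were not separated from those of the cells' own gene. The summed level of the luminal markers was 18200 to 21400 CPM in control libraries, 13900 to 15000 in those of A333fs, 12800 to 13400 in C321fs and 12100 to 13000 in Splice del. KRT8, KRT19 and KRT18 made up most of this sum, with means of 7520, 5560 and 2610 CPM in control. KRT8 and KRT18, cytokeratins of luminal cells, were called lower in Splice del and C321fs, and KRT19 in Splice del and A333fs, in which the estrogen-responsive TFF1 was called higher. TFF1 was the lowest of the luminal markers, at means of 2.25 to 5.48 CPM. ESR1, PGR, FOXA1, GATA3, EPCAM and CDH1 were called in no line, and EPCAM had a mean of 208 CPM in control and 268 to 278 in the mutant lines. Of 10 leukocyte markers, the defining genes PTPRC, CD2 and TYROBP were at 0 in every library. The summed leukocyte markers were 5.39 to 7.41 CPM in control, 7.43 to 8.84 in A333fs, 6.19 to 7.14 in C321fs and 7.8 to 9.44 in Splice del, and ITGAM and CD14 were called higher in Splice del and A333fs. Fibroblast markers summed to 53.6 to 65.2 CPM in control and to 41.3 to 57.7 in the mutant lines, with FAP at 0 in every library. LUM and DCN were called higher in Splice del and A333fs, COL3A1 was called lower in all 3 mutant lines (a mean of 5.13 CPM in control and 1.63 in A333fs) and COL1A1 lower in A333fs (53.4 and 30.1 CPM). Endothelial markers summed to at most 2.81 CPM in any library, with TEK and EMCN at 0 in every library and CLDN5 called lower in A333fs. The marker calls are those without removal of the GC trend, and whether they hold after it is not given here. ITGAM, LUM and DCN passed the filter on low counts only through Splice del and A333fs, so their calls are not independent of the filter. Whether other cells contributed to the genes described here was not tested.

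CCL2 and CCL28, the chemokines among these genes, separated the A333fs line from the other lines. CCL2, which attracts monocytes, was at 0 CPM in the 3 control libraries. It was at 0.0774, 0.0887 and 0 CPM in Splice del and at 0.0304, 0 and 0.0648 CPM in C321fs. In A333fs it was at 1.1, 0.861 and 0.704 CPM. These levels rested on 85 counts in A333fs, 6 in Splice del, 3 in C321fs and 0 in control, so CCL2 was near the limit of detection outside A333fs. CCL2 passed the filter on low counts only through the A333fs libraries, so its calls in that line are not independent of the filter. Taking 3 counts per library as the floor, the level in A333fs was at least 8.81-fold higher than in control (adjusted p = 6.1e-06 by edgeR). The ratio to C321fs was 27.2 with a 95% counting interval of 9 to 135, and the ratio to Splice del was 14.9 with an interval of 6.56 to 41.7. Both differences were called, with adjusted p = 4.7e-05 and 1.4e-04, and the intervals cover counting error only. The fitted log2 difference from C321fs, 4.61, was 5.46 without C321fs replicate 3. It rested on the 3 counts of that line. No fold change is given among the other lines, where every library held at most 3 counts.

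CCL28, a chemokine of mucosal and glandular epithelia, had an order of levels in which the lines were fully separated. Its levels were 14.5, 15.1 and 14.3 CPM in control and 12.6, 12.2 and 11.5 CPM in Splice del. They were 7.46, 7.32 and 6.97 CPM in C321fs and 30.0, 31.0 and 26.9 CPM in A333fs. The libraries of the 4 lines did not overlap, with A333fs highest, then control, Splice del and C321fs. Against control, CCL28 rose in A333fs by a log2 fold change of 1.00 ± 0.07 (SE, adjusted p = 3.3e-08) and fell in C321fs, where it differed by -1.01 ± 0.08 (adjusted p = 3.6e-07). The smaller difference of -0.27 ± 0.07 in Splice del had an adjusted p of 0.00612 and was under the fold change limit. The neighbours control and Splice del were thus the only adjacent lines in this order that were not called apart. After removal of the GC trend, the differences were 0.75, -1.22 and -0.49 in A333fs, C321fs and Splice del.

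**Figure D1:**
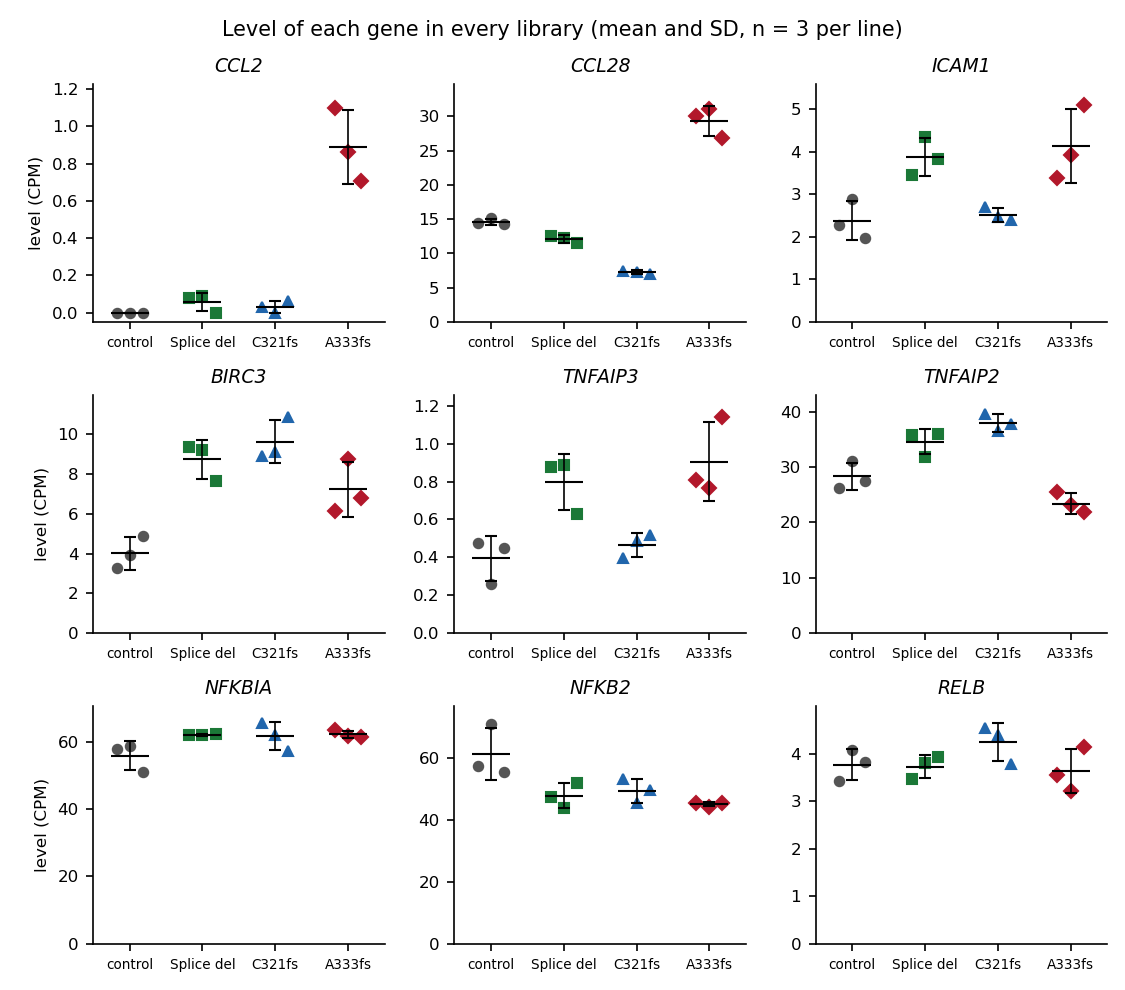
Level of each of the 9 genes in CPM (vertical axes, from 0, a separate scale for each gene) in every library of the 4 lines (points), with the mean and SD of 3 libraries as bars. CCL2 is above 0.7 CPM in the A333fs libraries alone, CCL28 runs from 6.97 to 31.0 CPM without overlap between lines, and NFKBIA stays between 50.9 and 65.5 CPM.

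ICAM1 and BIRC3, which act downstream in the response, were higher than control in more than 1 mutant line, and TNFAIP2 was called in none. ICAM1, an adhesion molecule of the cell surface that binds leukocyte integrins, was at 2.27, 2.89 and 1.98 CPM in control. It was at 3.46, 4.34 and 3.83 CPM in Splice del, at 2.71, 2.46 and 2.4 CPM in C321fs and at 3.39, 3.92 and 5.11 CPM in A333fs. The Splice del and A333fs libraries lay above every control and C321fs library, and control and C321fs overlapped. On the log2 scale ICAM1 rose in Splice del by 0.70 ± 0.17 (adjusted p = 0.00284) and in A333fs by 0.80 ± 0.17 (adjusted p = 8.1e-04), and the difference in C321fs was 0.08 ± 0.18 (adjusted p = 0.733). The call in Splice del was lost without control replicate 1 (adjusted p = 0.0133), control replicate 3 (0.0181) or Splice del replicate 2 (0.0178).

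BIRC3, a ubiquitin ligase of the IAP family that acts at tumor necrosis factor receptors and restrains cell death, was the gene called in all 3 mutant lines. Its levels were 3.26, 3.91 and 4.9 CPM in control and 9.37, 9.22 and 7.63 CPM in Splice del. In C321fs they were 8.92, 9.12 and 10.9 CPM, and in A333fs 6.13, 8.77 and 6.78 CPM. Each mutant library lay above every control library, and the mutant lines overlapped except that A333fs lay below C321fs. The log2 fold change was 1.26 ± 0.16 in C321fs (adjusted p = 1.6e-05), 1.13 ± 0.16 in Splice del (2.5e-05) and 0.85 ± 0.16 in A333fs (3.0e-04). BIRC3 had the lowest exon GC content of these genes, 35.9%, and after removal of the GC trend its values were 0.91, 0.80 and 0.52 in the same order, of which the last was under the fold change limit.

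TNFAIP2, a gene induced by tumor necrosis factor and linked to membrane protrusions, was at 26.2, 31.1 and 27.5 CPM in control. It was at 35.8, 31.9 and 36.0 CPM in Splice del, at 39.6, 36.5 and 37.8 CPM in C321fs and at 25.5, 23.1 and 21.8 CPM in A333fs. The Splice del and C321fs libraries lay above control and the A333fs libraries below it, without overlap. The log2 fold changes of -0.27 ± 0.08 in A333fs, 0.43 ± 0.08 in C321fs and 0.29 ± 0.08 in Splice del had adjusted p-values of 0.00806, 3.9e-04 and 0.00522, and none passed the fold change limit. After removal of the GC trend the values were 0.14, 0.67 and 0.52 in the same order. The C321fs difference was then called (adjusted p = 5.7e-08), and the A333fs difference had turned in direction (adjusted p = 0.0632). With library totals alone the C321fs difference was 0.59 and was also called.

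The feedback genes NFKBIA and TNFAIP3, which switch the response off, did not move together. NFKBIA encodes the inhibitor IkappaB alpha. Its levels were 57.7, 58.8 and 50.9 CPM in control, 63.4, 61.7 and 61.3 CPM in A333fs, 61.8, 61.8 and 62.1 CPM in Splice del and 65.5, 61.9 and 57.2 CPM in C321fs. The Splice del and A333fs libraries lay above all control libraries, and those of C321fs overlapped control. NFKBIA differed from control by 0.15 ± 0.06 on the log2 scale in Splice del (adjusted p = 0.0607), by 0.14 ± 0.06 in C321fs (0.0782) and by 0.15 ± 0.06 in A333fs (0.0481). After removal of the GC trend these differences were 0.31, 0.26 and 0.29 in the same order, with adjusted p-values of 9.6e-06, 1.0e-04 and 2.9e-05. They were still under the fold change limit.

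TNFAIP3, a ubiquitin-editing enzyme that blocks the signal upstream of the inhibitor, was a weakly detected gene. It was at 0.475, 0.257 and 0.451 CPM in control and at 0.877, 0.887 and 0.627 CPM in Splice del. It was at 0.396, 0.486 and 0.518 CPM in C321fs and at 0.807, 0.766 and 1.14 CPM in A333fs. The Splice del and A333fs libraries lay above all control and C321fs libraries. TNFAIP3 rose in Splice del by 1.03 ± 0.29 (adjusted p = 0.00716) and in A333fs by 1.21 ± 0.29 (adjusted p = 0.00191) on the log2 scale, and the difference in C321fs was 0.25 ± 0.33 (adjusted p = 0.557). The Splice del call was kept in 1 of the 6 fits that each left out a library of the lines compared. It was lost without control replicate 1, 2 or 3 or Splice del replicate 1 or 2, with adjusted p-values of 0.0106, 0.0455, 0.0128, 0.0315 and 0.0287, and without C321fs replicate 2 (0.0101). DESeq2 gave 0.0245. The A333fs call was lost without control replicate 2 (0.0146) or A333fs replicate 3 (0.0142).

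NFKB2 and RELB, the partners of the second branch of the pathway, were called in none of the mutant lines. NFKB2 was at 57.2, 70.8 and 55.3 CPM in control and at 45.4, 44.2 and 45.3 CPM in A333fs. It was at 47.3, 43.9 and 52.0 CPM in Splice del and at 53, 45.4 and 49.5 CPM in C321fs. NFKB2 was lower in each of the 9 mutant libraries than in any control library. The log2 fold changes of -0.44 ± 0.09 in A333fs, -0.36 ± 0.09 in Splice del and -0.31 ± 0.09 in C321fs had adjusted p-values of 4.9e-04, 0.00291 and 0.0086 and were under the fold change limit. NFKB2 has an exon GC content of 62.8%, and after removal of the GC trend the differences were 0.02 in A333fs, -0.11 in Splice del and -0.05 in C321fs, with adjusted p-values of 0.786, 0.103 and 0.477.

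RELB was at 3.43, 4.07 and 3.82 CPM in control and at 3.55, 3.22 and 4.14 CPM in A333fs. Its levels were 3.46, 3.81 and 3.94 CPM in Splice del and 4.54, 4.4 and 3.79 CPM in C321fs. The mutant lines all overlapped control. Its log2 differences from control were 0.17 ± 0.12 in C321fs, -0.02 ± 0.13 in Splice del and -0.05 ± 0.13 in A333fs, with adjusted p-values of 0.271, 0.901 and 0.748. RELB had the highest GC content of the 9 genes, 65.3%, and after trend removal its differences were 0.41, 0.27 and 0.45, with adjusted p-values of 0.00957, 0.0679 and 0.0062. The signs of the Splice del and A333fs differences were also positive under upper-quartile scaling and with library totals alone, so no direction can be given for RELB in these 2 lines. The difference in C321fs was positive under every alternative run.

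**Figure D2:**
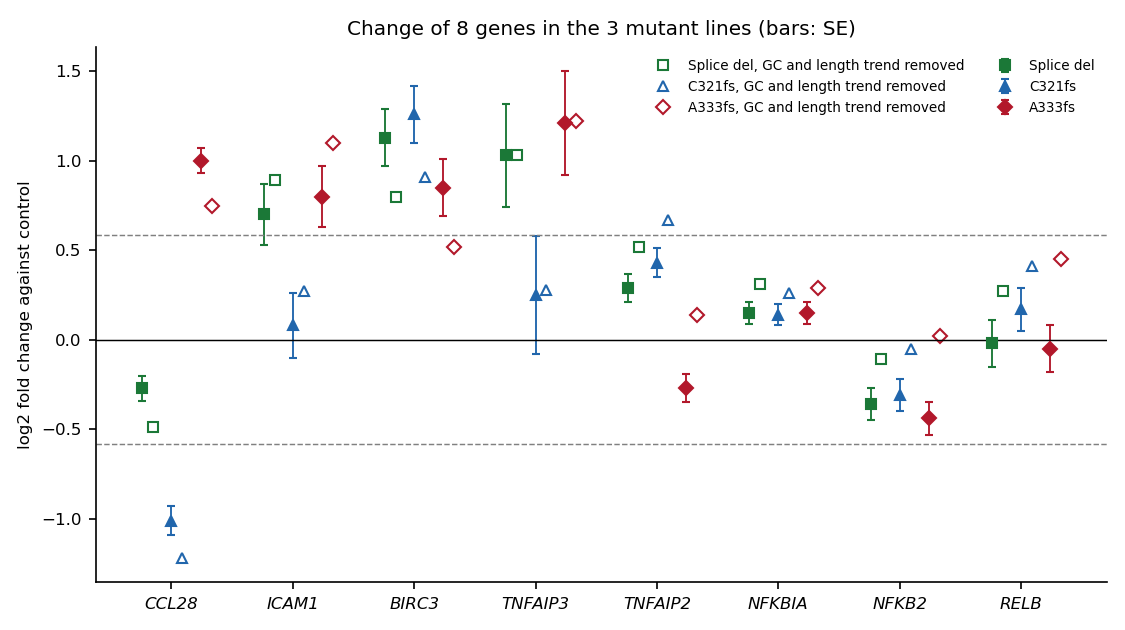
Log2 fold change of 8 genes against control in the 3 mutant lines (vertical axis), with filled symbols for the fit without correction and their SE as bars, and open symbols for the fit after removal of the GC trend. Dashed lines mark the fold change limit of 1.5. CCL2 is not drawn because its control libraries were at 0. BIRC3 is above the limit in all 3 lines without correction, and CCL28 is at -1.01 in C321fs and 1.00 in A333fs.

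As a group, the genes were called more often in A333fs than in the other lines, although that difference in number was not tested. The genes were chosen with earlier results of these data known, so their shares beside those of all genes are a description. In Splice del, 3 of the 9 genes were called higher, against 6.21% of all tested genes, and 0 were called lower, against 4.53%. In C321fs, 1 was called higher, against 4.63%, and 1 lower, against 2.26%. In A333fs, 5 were called higher, against 5.46%, and 0 lower, against 6.81%. Of these 5, CCL2 passed the filter on low counts only through A333fs, and the others were BIRC3, CCL28, ICAM1 and TNFAIP3. The libraries of 7, 4 and 8 of the 9 genes did not overlap control in Splice del, C321fs and A333fs, against 62.9%, 54.1% and 65.5% of all tested genes. Most tested genes were thus also free of overlap, and these counts are given as a description. Over all tested genes 808 were called higher and 1007 lower in A333fs, 684 and 334 in C321fs, and 918 and 670 in Splice del. With library totals alone the splits were 1544 and 380, 1518 and 110, and 2025 and 171, and after removal of the GC trend they were 647 and 176, 557 and 148, and 843 and 210. Without CCL2, the median log2 fold change of the other 8 genes was 0.48 in A333fs, 0.15 in C321fs and 0.22 in Splice del, and that of all tested genes was 0.01, 0.02 and 0.03 in the same order. Any difference among the 4 lines passed in 7 of the 9 genes, against 56.2% of all tested genes, with NFKBIA (adjusted p = 0.109) and RELB (0.35) not passing.

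Across genes, levels were compared per kilobase of exon. In control, NFKBIA was highest with 35.6 CPM per kilobase, followed by NFKB2 with 15.7, TNFAIP2 with 6.77 and CCL28 with 3.49. RELB with 1.66, ICAM1 with 0.733, BIRC3 with 0.582 and TNFAIP3 with 0.0832 were lower, and CCL2 was at 0. In A333fs, CCL28 with 6.98 CPM per kilobase lay above TNFAIP2 with 5.62, and CCL2 with 1.19 lay above BIRC3 with 1.05 and TNFAIP3 with 0.191. The genes called higher against control were therefore among those of low or intermediate level, and the most abundant ones, NFKBIA and NFKB2, were called in no comparison.

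**Figure D3:**
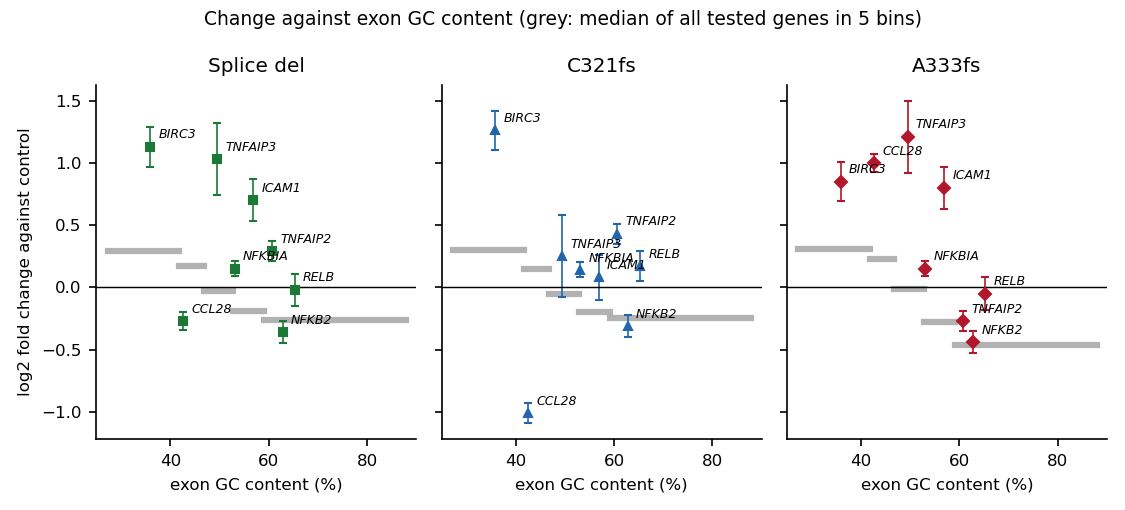
Log2 fold change against control (vertical axis) of 8 genes, with SE bars, by the GC content of their exons in percent (horizontal axis), in a panel for each mutant line. Grey bars are the median of all tested genes in each of 5 bins by GC content, which falls from 0.31 to -0.46 in A333fs. NFKB2 lies close to the grey bar of its bin, and BIRC3, ICAM1, NFKBIA, RELB, TNFAIP2 and TNFAIP3 lie above theirs in every panel. CCL28 lies above its bar in A333fs alone.

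Compared among themselves, the mutant lines differed in CCL28 in each pair, and CCL2 was also called in A333fs against each other mutant line. CCL2 passed the filter on low counts only through A333fs, so its calls are not independent of the filter. Between Splice del and C321fs, 1 gene was called higher, against 1.76% of all tested genes, and 0 lower, against 0.879%. It was CCL28, with a log2 difference of 0.74 ± 0.08 (adjusted p = 9.3e-06). Between A333fs and Splice del, CCL2 and CCL28 were called higher, 2 genes against 1.03%, and 0 were called lower, against 1.97%. The CCL28 difference was 1.27 ± 0.07 (adjusted p = 1.5e-08). TNFAIP2 differed by -0.56 (adjusted p = 1.4e-04), just under the fold change limit, and it was called lower with library totals alone (-0.60) and without Splice del replicate 2 or A333fs replicate 1 (-0.62 for both). After removal of the GC trend the TNFAIP2 difference was smaller, at -0.38, and was not called. Between A333fs and C321fs, 3 genes were called higher, against 2.47%, and 1 lower, against 3.08%. CCL28 differed by 2.01 ± 0.08 (adjusted p = 3.9e-11), CCL2 by the ratio given above and ICAM1 by 0.72 ± 0.17 (adjusted p = 0.00481). TNFAIP2 was the gene lower in A333fs, by a log2 difference of -0.70 ± 0.08 (adjusted p = 7.2e-06), and it fell under the fold change limit at -0.53 after removal of the GC trend. The ICAM1 difference lost its call in a fit of the 6 libraries alone (adjusted p = 0.0154) and without C321fs replicate 2 (0.0184), C321fs replicate 3 (0.0159) or A333fs replicate 3 (0.0349). ICAM1 also differed between Splice del and C321fs by 0.61 ± 0.17, which was not called (adjusted p = 0.0248), and it was called after removal of the GC trend (0.62, adjusted p = 0.00865). For TNFAIP3, A333fs against C321fs gave 0.96 ± 0.28 (adjusted p = 0.0162) and Splice del against C321fs 0.79 ± 0.28 (0.0801), so the calls against control in A333fs and Splice del and not in C321fs do not show that these lines differ. BIRC3 was called in no comparison of mutant lines, and its A333fs difference from C321fs was -0.42 ± 0.14 (adjusted p = 0.0409).

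**Figure D4:**
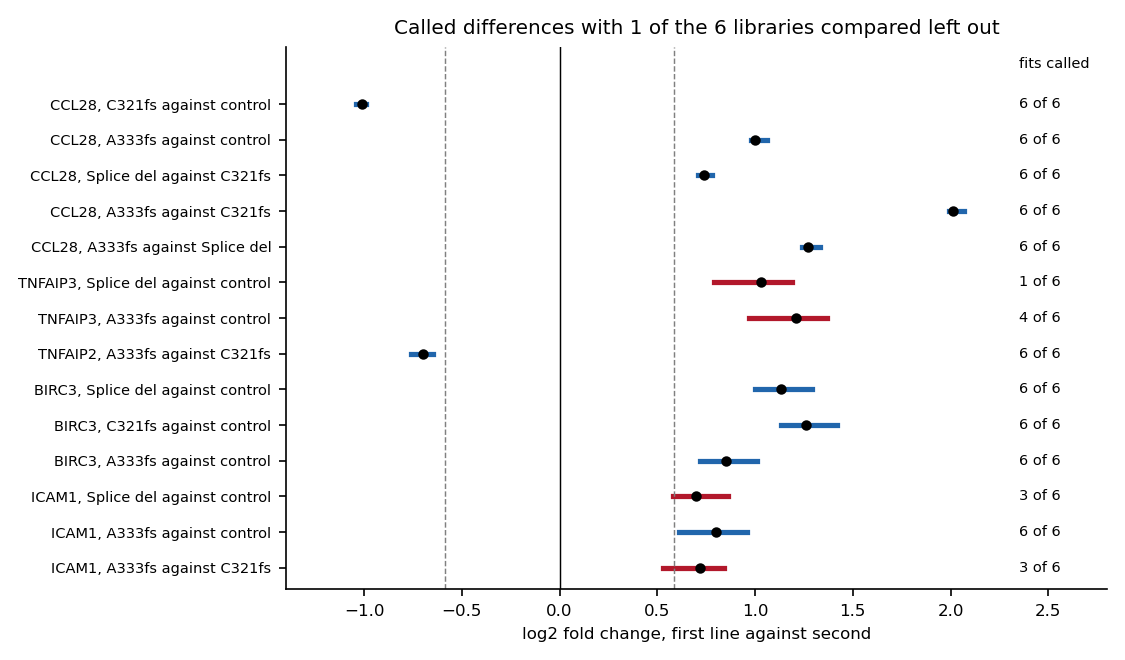
Range of the log2 difference (horizontal axis) over the 6 fits that each left out 1 library of the lines compared, for each called difference other than those of CCL2, with the value from all libraries as a black point. Blue ranges kept the call in 6 of 6 fits and red ranges lost it in at least 1, and the numbers at the right give the fits called. CCL28 and BIRC3 kept every call, and TNFAIP3 in Splice del kept it in 1 of 6.

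The wider pathway was described with 9 lists, also chosen with earlier results of these data known. They held 208 genes other than the 9, of which 119 were tested. Against control, 31 of these 119 (26.1%) were called in at least 1 mutant line, and 19.3% of all tested genes were. In A333fs 14 (11.8%) were called higher, against 5.46% of all tested genes, and 7 (5.88%) lower, against 6.81%. In C321fs 13 (10.9%) were higher, against 4.63%, and 3 (2.52%) lower, against 2.26%. In Splice del 19 (16%) were higher, against 6.21%, and 3 (2.52%) lower, against 4.53%. The shares called lower were thus near or below those of all genes. After removal of the GC trend, 12 were higher and 0 lower in A333fs, 12 and 1 in C321fs, and 16 and 0 in Splice del, so that nearly all the lower calls were lost, as were most of those over all genes (from 1007 to 176 in A333fs).

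All 5 subunit genes were tested and 0 were called in any line, against 19.3% of all tested genes. Of 18 genes for inhibitors and feedback, 17 were tested and 3 were called in any line, a share near the 19.3% of all tested genes. Of these, TNFAIP3 is described above. NFKBIZ, an inducible nuclear member of the IkappaB group, rose in all 3 lines, by 0.91 ± 0.11 in C321fs, 0.66 ± 0.11 in Splice del and 0.63 ± 0.11 in A333fs (adjusted p = 1.2e-05, 1.0e-04 and 1.4e-04), and was called in C321fs alone after trend removal. BCL3, another nuclear member of the group, fell in C321fs (-0.63 ± 0.09, adjusted p = 4.9e-05), a call that was lost after trend removal (-0.38).

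Among 29 kinases and adaptors, 0 were called higher in A333fs, 3 in C321fs and 4 in Splice del, against 5.46%, 4.63% and 6.21% of all tested genes. In A333fs 2 were called lower, against 6.81%, and 0 in the other lines. TRAF1, an adaptor of tumor necrosis factor receptors, rose in Splice del by 1.05 ± 0.22 (adjusted p = 7.7e-04), and its difference of 0.72 ± 0.23 in C321fs (adjusted p = 0.0154) was called after trend removal (0.91, adjusted p = 0.00362). MAP3K8, a kinase of the Toll-like receptor pathway, rose in Splice del by 0.71 ± 0.16 and in C321fs by 0.94 ± 0.16 (adjusted p = 0.00167 and 2.4e-04). IRAK4, a kinase of the same receptors, rose in Splice del and C321fs by 0.70 ± 0.09 and 0.67 ± 0.09, and TRAF5 rose in the same lines by 0.78 ± 0.12 and 0.64 ± 0.12. In A333fs, SHARPIN, a subunit of the linear ubiquitin ligase complex, fell by 0.67 on the log2 scale and the kinase IRAK1 fell by 0.60. The calls of IRAK4, TRAF5, SHARPIN and IRAK1 were lost after removal of the GC trend.

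Of 21 ligands only 6 were tested, and 1 was called in any line, against 19.3% of all tested genes. TNFSF10, the death ligand TRAIL, was called in Splice del (1.10 ± 0.10, adjusted p = 8.4e-07) and C321fs (0.65 ± 0.11, 1.6e-04), the latter not after trend removal (0.37). Of 22 receptors tested, 5 were called higher in A333fs, against 5.46% of all tested genes, 4 in C321fs, against 4.63%, and 7 in Splice del, against 6.21%, and 1, 0 and 1 were lower, against 6.81%, 2.26% and 4.53%. TNFRSF11A, the receptor RANK, rose from a mean of 4.34 CPM in control to 16.2 in Splice del, 16.1 in A333fs and 7.85 in C321fs. The log2 rises were 1.90 ± 0.10, 1.89 ± 0.10 and 0.85 ± 0.10 (adjusted p = 1.1e-09, 7.9e-10 and 1.3e-05), and they were 1.91, 1.92 and 0.90 after trend removal. The Toll-like receptor genes TLR6 and TLR3 were called higher in all 3 lines and TLR1 in Splice del and A333fs, at mean levels of at most 1.86 CPM. TLR3, with 7, 11 and 6 counts in control, passed the filter on low counts only through the mutant lines. TLR1 passed it only through Splice del and A333fs, so the calls of TLR3 and TLR1 are not independent of the filter. The TLR6 call in C321fs (1.25) was lost without control replicate 1 (adjusted p = 0.0129) or C321fs replicate 2 (0.012). FAS, a death receptor, rose in Splice del and C321fs by 0.63 ± 0.06 and 0.73 ± 0.06, and TNFRSF12A, the receptor of the ligand TWEAK, fell in Splice del and A333fs by 0.86 and 0.78 on the log2 scale, calls that were lost after trend removal.

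Of 41 chemokines, 7 were tested, and 32 of the other 34 had at most 3 counts in every library. Beside CCL2 and CCL28, CXCL12, CXCL14 and CCL5 were called. Of the 7, 5 were thus called in any line, against 19.3% of all tested genes. CCL2, CXCL14 and CCL5 passed the filter on low counts only through mutant lines, so this share is not independent of the filter. It also counts CCL2 and CCL28 again and is given as a description. CXCL12, a ligand of CXCR4, was abundant with a mean of 498 CPM in control and 792 in A333fs, a log2 difference of 0.67 ± 0.04 (adjusted p = 1.6e-08) that was just under the limit at 0.57 after trend removal. CXCL14, an epithelial chemokine, had 2 counts in control and 90, 92 and 183 in Splice del, C321fs and A333fs. It passed the filter on low counts only through the mutant lines. The ratios were 39.7, 44.5 and 84.9, with 95% counting intervals that began at 10.7, 12 and 23.2, which cover counting error only and rest on 2 counts in 1 control library, and adjusted p-values of 4.9e-06, 6.7e-06 and 1.3e-07. CCL5 was called in Splice del at 0.61 CPM against 0.243 in control (1.28 ± 0.38, adjusted p = 0.00935). That call was lost with a replicate block (0.0157), with DESeq2 (0.0194) and without control replicate 1 or 3 (0.0456 and 0.0419) or Splice del replicate 1, 2 or 3 (0.0207, 0.0158 and 0.0321). In C321fs CCL5 differed by 1.26 ± 0.39 (adjusted p = 0.0126), which was called after trend removal (1.40, adjusted p = 0.00656).

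Of 23 chemokine receptors, 6 were tested and 2 were called in any line, against 19.3% of all tested genes. CXCR4, the receptor of CXCL12, rose from 0.507 CPM in control to 6.37 in Splice del, 4.05 in A333fs and 2.61 in C321fs, with log2 fold changes of 3.65 ± 0.19, 3.0 ± 0.20 and 2.36 ± 0.22 (adjusted p = 1.5e-09, 1.8e-08 and 1.6e-06). They were 3.53, 2.81 and 2.22 after trend removal. CCR7 was called in Splice del (0.97 ± 0.29, adjusted p = 0.00993). This call was lost with DESeq2 (0.0186) and without control replicate 1 (0.0158), control replicate 2 (0.65, adjusted p = 0.0618) or Splice del replicate 1, 2 or 3 (0.0136, 0.0208 and 0.0405).

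Of 40 other target genes, 26 were tested, with 5 higher in A333fs, 1 in C321fs and 2 in Splice del, against 5.46%, 4.63% and 6.21% of all tested genes, and 2, 2 and 1 lower, against 6.81%, 2.26% and 4.53%. IL32, a cytokine, had a mean of 0.677 CPM in control and 2.36 in A333fs, a rise of 1.81 ± 0.26 (adjusted p = 2.5e-05), and its differences of -1.0 in Splice del and -0.95 in C321fs were not called (0.0295 and 0.0408). CFB, complement factor B, rose by 1.52 ± 0.25 in A333fs, 1.12 ± 0.27 in C321fs and 1.18 ± 0.26 in Splice del (adjusted p = 1.1e-04, 0.00298 and 0.00136). The call in C321fs was lost without control replicate 1, 2 or 3 or C321fs replicate 3 (0.0104, 0.0115, 0.0111 and 0.0156). LCN2, a secreted siderophore-binding protein, rose in A333fs by 1.20 ± 0.28 (adjusted p = 0.00176), a call that was lost without control replicate 2 (0.0119) or A333fs replicate 2 (0.0106). IRF1, a transcription factor, rose in Splice del and A333fs by 0.62 ± 0.11 and 0.59 ± 0.11. Both values were close to the fold change limit, under which they fell without control replicate 3 (0.57 and 0.53), that of Splice del also without its replicate 3 (0.58) and that of A333fs without its replicate 1 or 3 (0.56 and 0.57). The early response gene IER3 fell by 0.60 in A333fs, 0.65 in C321fs and 0.61 in Splice del, and the mucin gene MUC1 fell in C321fs and A333fs by 0.95 and 0.71 on the log2 scale. After trend removal, IER3 was called in no line and MUC1 in C321fs alone (-0.73). Among 8 tested relatives of ICAM1 and BIRC3, 2 were called in any line, against 19.3% of all tested genes. ICAM5 rose in C321fs (0.92 ± 0.18, adjusted p = 7.0e-04) and fell in A333fs (-1.11 ± 0.23, adjusted p = 6.8e-04), the latter call being lost after trend removal. ICAM3 fell in Splice del and A333fs by 0.69 in each, calls that were also lost after trend removal.

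**Figure D5:**
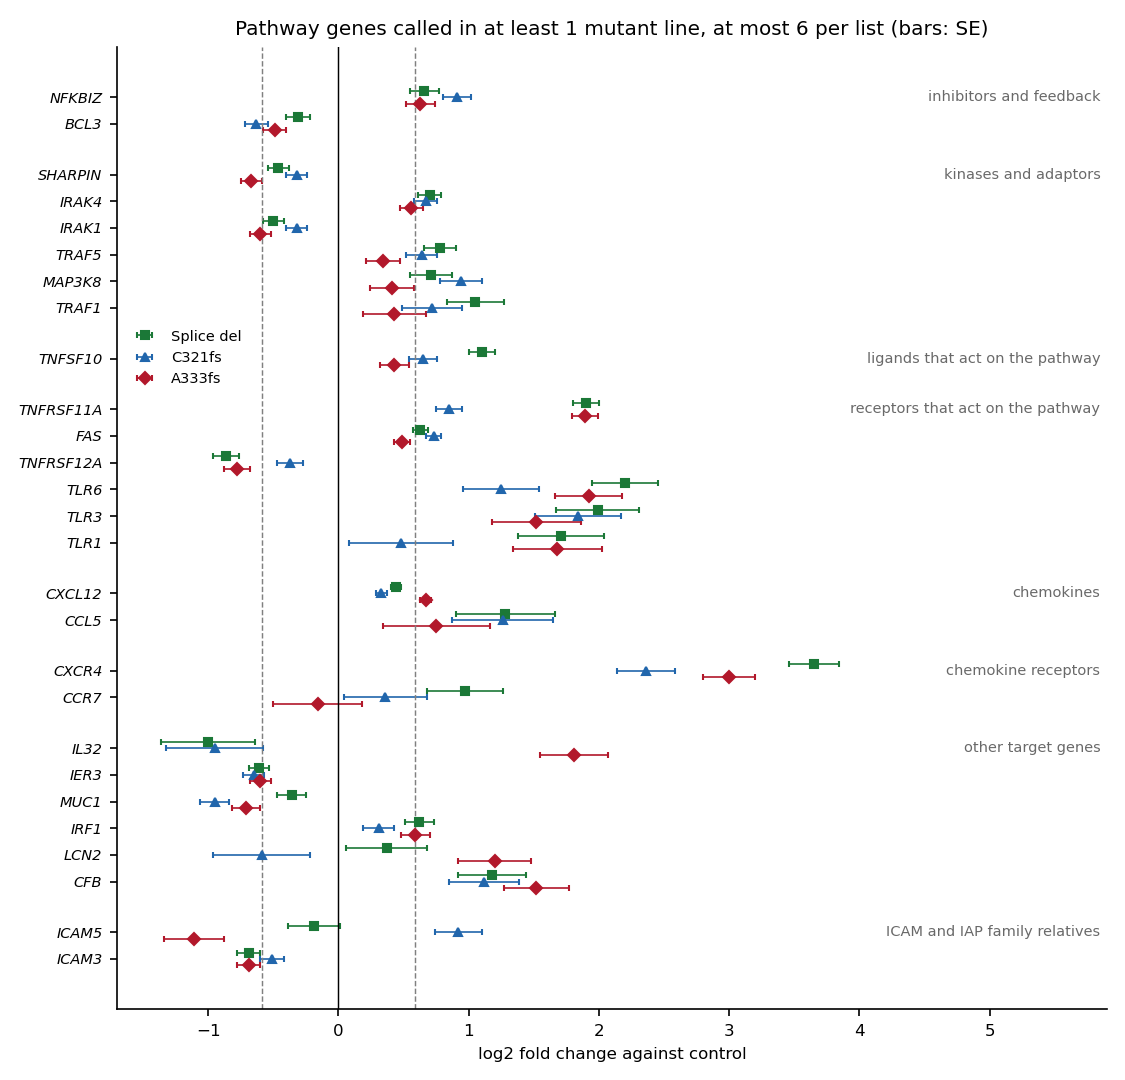
Log2 fold change against control (horizontal axis, SE as bars) of the pathway genes called in at least 1 mutant line, at most 6 for each list, without the 9 genes themselves and without CXCL14, whose control libraries were at the floor. Dashed lines mark the fold change limit of 1.5. CXCR4 lies between 2.36 and 3.65 in the 3 lines, and ICAM5 lies at 0.92 in C321fs and -1.11 in A333fs.

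For each gene, the 2 genes with the most similar pattern over the 12 libraries were found among 12980 genes with a mean of at least 1 CPM, by the root mean square difference of centred log2 CPM. For CCL28 they were EPAS1 and ANXA3, at 0.19 and 0.20, where CCL28 itself varied by 0.72. EPAS1 had mean levels of 67.4, 58.9, 39.1 and 117 CPM in control, Splice del, C321fs and A333fs, the same order as CCL28. For BIRC3 they were CCDC82 and TTC14, both at 0.15 where BIRC3 varied by 0.52, and for ICAM1 they were HIST1H4H and CCNJL, at 0.15 and 0.16 where ICAM1 varied by 0.39. TNFAIP3 was most like NBEA and RRS1-AS1 (0.21 and 0.22, of 0.52) and TNFAIP2 most like CACNB1 and KCNS3 (0.06 and 0.08, of 0.28). NFKB2 was closest to PTDSS2 and POR (0.05 and 0.06, of 0.19), RELB to HMOX1 and CMTM7 (0.08 and 0.09, of 0.14) and NFKBIA to LAPTM4A and H3F3AP4 (0.04 for both, of 0.09). CCL2 had no close match, with MESP1 at 0.74 and ROBO2 at 0.80, of 1.57. HIST1H4H and H3F3AP4 belong to families of near-identical copies, and their counts are uncertain.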

How the data were processed

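Gene counts of 12 RNA-seq libraries were used, from 4 lines of T47D cells with 3 libraries each. The authors trimmed the reads, aligned them to hg38 and counted fragments per gene with featureCounts 1.6.4, without strand. The deposited counts are raw, without normalization or pooling of replicates. The aligner is named as HISAT2 in the submitters' processing notes, and the library names in the count header point to STAR. The ChIP-seq files were not used here.

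Genes that passed edgeR's filterByExpr (14789 of 26485, including all 9 members) were scaled by TMM, and all 12 libraries were fitted together with edgeR 4.0.16 (glmQLFit, glmQLFTest) in R 4.3.3, with a coefficient per line and no covariate. Each mutant line was compared with control and with each other mutant line (6 comparisons), and an F-test with 3 coefficients covered the 4 lines at once. Adjusted p-values are Benjamini-Hochberg over all tested genes. The SE is the log2 fold change divided by the square root of the F statistic. A line with at most 3 counts in each library was taken as at the floor, and count ratios have exact binomial 95% intervals. The trend over GC content and exon length was removed with loess offsets (span 0.3), and log2 CPM used a prior count of 2. The fit was tested on simulated data.

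The members, the pathway and marker lists and the tests were chosen with earlier results of these data known. Of each list, the called genes were named, at most 6 with the smallest F-test p. Alternatives were RLE, upper-quartile and total scaling, no filter or at least 10 counts in every library, DESeq2 1.42.0, an adjusted p of 0.05, no fold change limit, a test against a fold of 1.5, fits of 6 libraries, a replicate block, the trend removal and leaving out each library.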

Additional observations from a re-analysis of the deposited data

Results flagged for a closer look

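Differences between the effects of the mutant lines were tested directly, as the difference between those lines, and both effects in each pair rest on the same control libraries. CCL28 differed in all 3 pairs, by 0.74 between Splice del and C321fs, 2.01 between A333fs and C321fs and 1.27 between A333fs and Splice del on the log2 scale. CCL2 in A333fs was 27.2 times its level in C321fs and 14.9 times that in Splice del, from 3 and 6 counts in those lines, with 95% counting intervals of 9 to 135 and 6.56 to 41.7. CCL2 passed the filter on low counts only through A333fs. ICAM1 differed between A333fs and C321fs by 0.72, and TNFAIP2 by -0.70. The last 2 calls did not hold under every alternative described above. With 3 libraries for each line, no test for single outlying libraries was made.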

How the results depend on the processing

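Each called difference kept its direction under every alternative, and the calls of CCL28 against control and of BIRC3 in C321fs held in all of them. Without the fold change limit 6 genes were called in Splice del, 4 in C321fs and 80 of the other pathway genes in any line. Of all 14789 tested genes, 2766 were then higher and 3314 lower in Splice del, and 2382 and 3067 in C321fs. Such calls were thus common over all genes. In a test against a fold change of 1.5, 0 were called in Splice del, 2 in A333fs, 0 between Splice del and C321fs, 2 between A333fs and C321fs and 7 of the pathway genes. A minimum of 10 counts in every library, which leaves out CCL2 and TNFAIP3, gave 3 in A333fs and 1 between A333fs and Splice del. DESeq2 also gave 1 for the latter pair, where it left CCL2 without an adjusted p and called 144 higher and 248 lower of 14322 genes. Between Splice del and C321fs, 2 were called with no filter, with an adjusted p of 0.05 and after removal of the GC trend, where ICAM1 joined CCL28. Over all genes the higher and lower calls were 307 and 147 of 21227, 325 and 175 of 14789, and 273 and 145 of 14789 in the same order. Leaving out 1 library gave 1 to 3 calls in Splice del, which were 1 without control replicate 1, control replicate 3 or Splice del replicate 2. Over all genes those fits called 773 higher and 807 lower of 14942, 906 and 727 of 14972, and 775 and 624 of 14928. A replicate block gave 2 in Splice del, where TNFAIP3 had an adjusted p of 0.0108, 30 in place of 31 pathway genes, and unchanged counts in the other comparisons of the 9 genes. Over all 14789 genes the block called 893 higher and 668 lower in Splice del. The replicate numbers did not pair the libraries, with a mean correlation of -0.0092 over 18 pairs and 4 of 12 libraries most like their own number.

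Under the alternatives run, changes of direction were confined to differences that were not called. For NFKBIA they were -0.0043 (A333fs against C321fs) and -0.03 (A333fs against Splice del) with library totals, and -0.02 for the latter after removal of the GC trend. After that removal NFKB2 gave 0.02, 0.08 and 0.13 for A333fs against control, C321fs and Splice del, RELB 0.45, 0.04 and 0.18 for the same pairs, and TNFAIP2 0.14 for A333fs against control. RELB in Splice del against control gave 0.07, 0.17 and 0.27 with upper-quartile scaling, library totals and trend removal, and RELB in A333fs gave 0.06 and 0.10 with the first 2 of these. Upper-quartile scaling moved the median of all genes against control to 0.106 to 0.122, and library totals moved it to 0.155 to 0.219. Leaving out 1 library gave, for NFKBIA, -0.04 to 0.06 in Splice del and in A333fs against C321fs and -0.01 to 0.04 in A333fs against Splice del. It gave -0.11 to 0.01 for NFKB2 in Splice del against C321fs. RELB ran from -0.09 to 0.04 in Splice del and from -0.16 to 0.07 in A333fs against control, and from -0.14 to 0.08 in A333fs against Splice del. In A333fs against Splice del, TNFAIP3 ran from -0.04 to 0.31 and ICAM1 from -0.08 to 0.23, and ICAM1 in C321fs against control from -0.03 to 0.25. CCL2 and TNFAIP3 had few counts, and the cause of these changes was not tested.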
